A study of Mus musculus with 16 samples.

Results

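In MycER embryonic stem cells (ESCs), 1195 H3K4me3 regions carried no Suz12 peak when the cells were grown with LIF and held one when the cells depended on Myc. H3K4me3 peaks of the 2 cultures that overlapped were merged, which gave 36255 regions, and 31943 of these held a peak in LIF-grown cells (LIF-ESCs). From them were taken the regions with a Suz12 peak within 1000 bp in Myc-dependent cells (Myc-ESCs) and no Suz12 peak within 1000 bp in LIF-ESCs. Of the 28376 H3K4me3 regions that were free of Suz12 in LIF-ESCs, these made up 4.21%. The highest Suz12 score was at least 100 at 544 of them (1.92% of the free regions), here called strong, and lower at 651 (2.29%), here called weak.

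The study mapped H3K4me3, H3K27me3 and the Polycomb protein Suz12 by chromatin immunoprecipitation and sequencing to ask how the chromatin of bivalent genes differs between these cultures. All cells were R1 mouse ESCs that carry MycER, in which Myc with the T58A change is joined to the estrogen receptor domain that 4-hydroxytamoxifen (OHT) activates, so the LIF-ESCs hold the fusion protein as well. LIF-ESCs received 100 units/ml LIF and no OHT, and Myc-ESCs received 50 nM OHT and no LIF. Both were grown without feeder cells in serum with vitamin C. Loss of LIF and activity of MycER thus always came together and cannot be told apart. The labels do not name the clone used for chromatin, and the promoter that drives the fusion is not given in the sources used here.

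Suz12 is a core subunit of Polycomb repressive complex 2 (PRC2), the enzyme complex that methylates lysine 27 of histone H3. H3K27me3 accompanies gene repression, while H3K4me3 marks the start sites of genes that are active or ready for activity. Regions that hold both marks are called bivalent and are typical of developmental genes in ESCs, where PRC2 gathers at CpG-rich DNA. LIF acts through Jak kinases and Stat3, which switches on Socs3 and Klf4 among others.

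By the labels there were 16 libraries, of which 4 were inputs and the rest came as 2 per antibody in either culture, but the data analysed here were 6 lists of called peaks, 1 per antibody and culture. Without lists or counts per library, depth is unknown, no difference between cultures could be set against replicate error, and no test was made. "Gained" therefore means only that a peak was called in Myc-ESCs and not in LIF-ESCs. The score of a peak rises with the evidence for it and with depth, and many of the strongest peaks share the value 3100, at which their order cannot be read. Shares are given with 95% Wilson intervals, which cover counting error only and treat regions as independent. The 1195 regions rested on 1188 different strongest Suz12 peaks, so a few regions shared a peak. H3K4me3 was called at the start sites of 6 of 6 ESC marker genes (Pou5f1, Sox2, Nanog, Zfp42, Sall4 and Lin28a) in both cultures, and Suz12 at 0 of them in either.

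The DNA under the gained Suz12 peaks ranged from CpG-rich to CpG-poor. To show this range, the 150 bp at the centre of the strongest Suz12 peak are printed for 6 signalling and pluripotency genes, picked after their values were seen, from the plus strand of GRCm38, with each CG in capitals. For Inhbb the stretch nearest the centre that lies outside the untranslated exon is shown. The windows lie at chr11:117967950-117968099 (coding exon of Socs3), chr4:55531300-55531449 (intron of Klf4), chr1:119422249-119422398 (upstream of Inhbb), chr5:119670572-119670721 (intron of Tbx3os1, the antisense neighbour of Tbx3), chr14:46389456-46389605 (intron of Bmp4) and chr1:136948260-136948409 (intron of Nr5a2).
Socs3: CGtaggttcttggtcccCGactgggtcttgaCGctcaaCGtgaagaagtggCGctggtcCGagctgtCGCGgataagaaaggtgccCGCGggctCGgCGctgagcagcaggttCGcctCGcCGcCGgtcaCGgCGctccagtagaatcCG
Inhbb: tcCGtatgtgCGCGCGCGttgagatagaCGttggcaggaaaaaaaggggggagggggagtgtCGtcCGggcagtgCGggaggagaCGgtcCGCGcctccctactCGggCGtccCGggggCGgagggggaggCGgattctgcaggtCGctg
Klf4: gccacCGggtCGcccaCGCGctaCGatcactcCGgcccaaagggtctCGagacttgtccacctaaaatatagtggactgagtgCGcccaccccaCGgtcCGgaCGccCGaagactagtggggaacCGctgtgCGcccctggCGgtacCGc
Tbx3: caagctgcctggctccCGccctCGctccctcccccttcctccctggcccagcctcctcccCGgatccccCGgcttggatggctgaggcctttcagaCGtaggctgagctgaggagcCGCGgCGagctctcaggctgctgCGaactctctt
Bmp4: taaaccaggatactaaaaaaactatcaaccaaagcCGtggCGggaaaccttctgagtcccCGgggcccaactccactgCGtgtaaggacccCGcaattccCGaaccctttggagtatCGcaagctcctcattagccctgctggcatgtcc
Nr5a2: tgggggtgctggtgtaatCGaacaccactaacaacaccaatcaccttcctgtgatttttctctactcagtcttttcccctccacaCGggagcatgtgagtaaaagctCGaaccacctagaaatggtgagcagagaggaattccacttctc
The Socs3 window held 19 CpG, the Inhbb window 18 and the Klf4 window 16. The Tbx3 and Bmp4 windows held 9 and 7. The Nr5a2 window, with a GC content of 48.0%, held 3.

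The 20 genes with the highest Suz12 scores included Socs3, Tbx3, Klf4, Nr5a2, Inhbb, Bmp4, Tead1 and the protocadherins Pcdhga11 and Pcdhgc3. The region chr11:117961240-117970955 covers Socs3, which encodes the feedback inhibitor of Jak-Stat3 signalling. It held no LIF-ESC Suz12 peak within 566203 bp, and in Myc-ESCs 3 peaks with a highest score of 3100. The longest ran for 2889 bp over the gene body. H3K4me3 there covered 9678 bp with LIF and 6537 bp with Myc, and H3K27me3 was called at 3 peaks in Myc-ESCs and 0 in LIF-ESCs, with a highest score of 91.6.

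Among regulators of naive pluripotency, Tbx3 held the widest domain. Its region chr5:119667549-119679161 carried 6 Myc-ESC Suz12 peaks with a highest score of 3100, which covered 9423 bp. H3K4me3 covered 11613 bp with LIF against 5954 bp with Myc, and 3 H3K27me3 peaks appeared in Myc-ESCs. Klf4, a Krüppel-like factor used in reprogramming, reached a Suz12 score of 2504.63 with 5 peaks. Its H3K4me3 went from 10182 bp in LIF-ESCs to 5415 bp in Myc-ESCs, and no H3K27me3 peak was called in either culture. Nr5a2, a nuclear receptor that can activate Pou5f1, had a Suz12 score of 1440.64, with H3K4me3 over 10576 and 9724 bp and a single Myc-ESC H3K27me3 peak. By the rule, Socs3, Tbx3, Klf4 and Nr5a2 lacked Suz12 calls in LIF-ESCs. Their H3K4me3 covered over 8000 bp in LIF-ESCs and fewer bases in Myc-ESCs. Regions of that width with Suz12 in neither culture fell as well, with a median log2 ratio of bases, Myc-ESCs over LIF-ESCs, of -0.45.

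**Figure D1:**
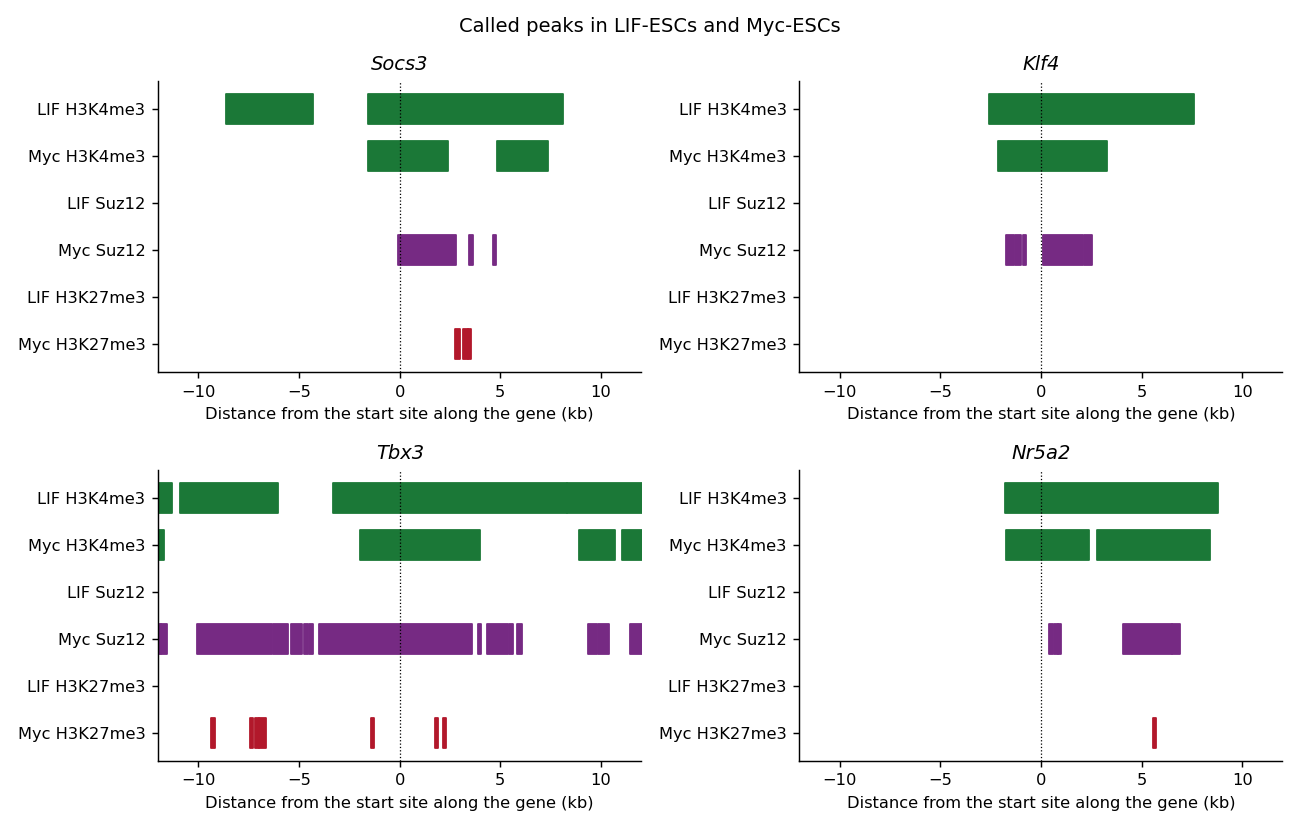
Called peaks of H3K4me3 (green), Suz12 (purple) and H3K27me3 (red) in LIF-ESCs and Myc-ESCs at Socs3, Klf4, Tbx3 and Nr5a2, by distance in kb from the start site in the direction of the gene. Suz12 bars appear only in the Myc-ESC rows, over shorter or divided H3K4me3 bars, and H3K27me3 bars are short and absent at Klf4.

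Further genes with high scores encode ligands, receptors and regulators of signalling. Inhbb, which encodes a subunit of activin B, had a Suz12 score of 2515.46, and its H3K4me3 went from 9585 bp in LIF-ESCs to 4631 bp in Myc-ESCs. Bmp4, a bone morphogenetic protein, had a score of 1668.04 with H3K4me3 over 8849 and 7521 bp and no H3K27me3 peak. Tead1, a DNA-binding partner of the Hippo pathway effectors, had a score of 2190.14 and 9 Myc-ESC H3K27me3 peaks with a highest score of 268.38. Ngfr, a neurotrophin receptor, had a score of 1536.65 and 4 H3K27me3 peaks. Of these 4 genes, Bmp4 alone lacked H3K27me3 in Myc-ESCs. Sema5b, a semaphorin, reached 1673.81, Macroh2a2, a histone variant gene, reached 1788.47, and Msc, a helix-loop-helix factor, reached 1394.09. The single highest score, 3131.21, belonged to a peak inside Islr2, over its coding exon, and 1600029O15Rik has a start site in the same H3K4me3 region. Whether this peak was stronger than those that share the value 3100 cannot be read from the score. Bmp4 and Gm15222 share a region, as do Tbx3 and Tbx3os1, and the H3K4me3 and Suz12 there cannot be assigned to a single gene. The noncoding gene 2810410L24Rik reached 2165.97 without an H3K27me3 peak.

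Of the 20 genes with the highest scores, Mafa and Pdgfa had another H3K4me3 region with a LIF-ESC Suz12 peak. At Pdgfa the gain thus concerned only part of the gene. At Mafa the Myc-ESC Suz12 peak, with a score of 2650.6, did not overlap the member. It overlapped the neighbouring Mafa region, which already held 3 Suz12 peaks in LIF-ESCs. The members at Mafa and Pdgfa lay 1119 and 1580 bp from the nearest LIF-ESC Suz12 peak. The Pcdhga11 region, with a Suz12 score of 3100, lay 1056 bp from a LIF-ESC Suz12 peak and thus only just beyond the limit. Over all members the smallest such gap was 1027 bp, and 19 members had a LIF-ESC Suz12 peak within 1500 bp. Inside the limit, 15 regions with Suz12 in both cultures had their LIF-ESC peak more than 500 bp away. Members were nearer to Suz12 of LIF-ESCs than were regions with Suz12 in neither culture, at a median distance of 152918 bp (quartiles 52042 and 375542 bp) against 208315 bp (quartiles 86371 and 460227 bp). The nearest peak was over 50000 bp away at 75.9% of strong members (interval 72.2 to 79.3%) and at a like share of weak members (interval 71.5 to 78.1%).

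On the score, members were dense around the limit between weak and strong. There were 53 members from 90 up to 100 and 57 from 100 up to 110, and the values next to the limit were 99.89 and 100.29. A Myc-ESC H3K27me3 peak lay at 25 of the former and 29 of the latter. Strong members had a median score of 195.4 (quartiles 132 and 393) and usually several Suz12 peaks, since only 23.9% held a single one. Weak members had a median score of 63.2, and 69.0% held a single peak.

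H3K27me3, which took no part in choosing the regions, was called at many members in Myc-ESCs and at few in LIF-ESCs. In LIF-ESCs 7.17% of the strong members (interval 5.29 to 9.65%) had an H3K27me3 peak, and in Myc-ESCs 52.2% (interval 48.0 to 56.4%). Of the weak members, 5.53% (interval 4.02 to 7.56%) and 27.3% (interval 24.1 to 30.9%) did so. Over all 31943 H3K4me3 regions with a LIF-ESC peak the shares were 3.62% in LIF-ESCs and 9.64% in Myc-ESCs. Among members without the mark in LIF-ESCs, 410 of 1120 (36.6%, interval 33.8 to 39.5%) had it in Myc-ESCs, beside 7.05% of all regions without it in LIF-ESCs. That share was 62.7% (interval 60.6 to 64.7%) at the 3099 regions with Suz12 in both cultures, 12.5% (interval 9.64 to 16.0%) at the 468 with Suz12 in LIF-ESCs only and 1.22% (interval 1.09 to 1.35%) at the 27181 with Suz12 in neither. The intervals of the members and of these groups do not overlap.

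The size of this difference, and at weak members its direction, rested on list length. The Myc-ESC H3K27me3 list held 16717 peaks and the LIF-ESC list 3120. To make the lists equal in length, the lowest-scoring peaks were dropped from whichever culture had more, for all antibodies, and 946 regions then gained Suz12. Among the strong of these the LIF-ESC share was 7.29% (interval 5.38 to 9.81%) and the Myc-ESC share 10.5% (interval 8.15 to 13.3%). Among the weak they were 5.84% (interval 3.96 to 8.54%) and 2.92% (interval 1.68 to 5.03%). In both groups the intervals of the cultures overlap. Regions with Suz12 in both cultures stood at 28.9 and 28.7%, and those with Suz12 in neither at 0.557 and 0.102%. With all lists limited to scores of at least 100, 1005 regions gained Suz12. Some of these, such as that of Sfrp1, hold a LIF-ESC Suz12 peak under 100 and are not members by the rule. Among the 1005 the share with H3K27me3 was 0.697% in LIF-ESCs and 14.2% in Myc-ESCs. Whether the longer Myc-ESC list comes from depth or from more H3K27me3 was not tested.

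**Figure D2:**
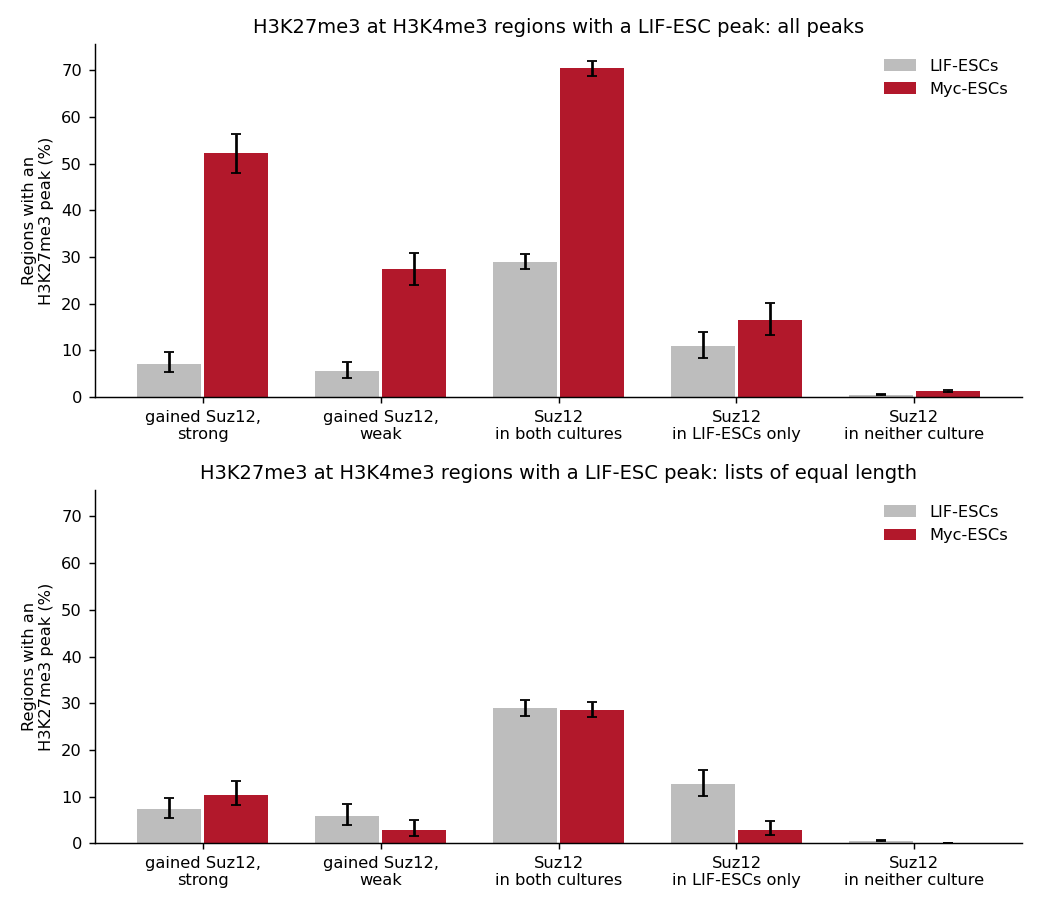
Share of H3K4me3 regions with an H3K27me3 peak within 1000 bp in LIF-ESCs (grey) and Myc-ESCs (red), by Suz12 class, with 95% Wilson intervals. With all peaks the strong members stood at 7.17 and 52.2%, and with lists of equal length at 7.29 and 10.5%, where the intervals overlap.

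Within the Myc-ESC lists, H3K27me3 was more frequent at members with higher Suz12 scores. The share with H3K27me3 was 27.3% at scores under 100, 45.7% (interval 39.9 to 51.6%) from 100 to 200, 48.9% (interval 40.5 to 57.3%) from 200 to 400, 66.2% (interval 55.1 to 75.8%) from 400 to 800 and 72.4% (interval 59.8 to 82.2%) at 800 or more. At regions with Suz12 in both cultures it was 36.2, 50.6, 57.5, 71.3 and 90.4% in the same steps. In the middle steps the intervals of the groups overlap. In the first step (24.1 to 30.9% against 31.6 to 41.1%) and the last (59.8 to 82.2% against 88.8 to 91.9%) the members were lower. Where present, the mark was narrow. Strong members with H3K27me3 held a median of 2 peaks that covered 291.5 bp, with a median highest score of 71.7.

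Among members with a start site, the highest H3K27me3 scores belonged to Msl1 (386.64), a subunit of a histone acetyltransferase complex, Zbtb46 (311.41), a zinc finger repressor, 6820431F20Rik (310.12), and the neighbours Bhmg1 and Fbxo46 (285.85), which share a region. At Zbtb46 and at Bhmg1 and Fbxo46 an H3K27me3 peak was also called in LIF-ESCs. At Msl1 and 6820431F20Rik it was called in Myc-ESCs only. The Suz12 scores of these regions ranged from 64.23 at Bhmg1 to 813.09 at Zbtb46. Of the members without a start site, named here after their values were seen, those whose nearest genes were Nsd2, Hnrnpu and C1qtnf4 had H3K27me3 scores of 388.59, 329.98 and 321.87. Their Suz12 scores were 368.77, 1198.94 and 161.11.

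H3K4me3 itself was called in Myc-ESCs at 96.1% of members (interval 94.8 to 97.0%), so few lost the mark. No Myc-ESC H3K4me3 peak was found at 3.93% of members, beside 19.5% of all regions with a LIF-ESC peak, 2.23% of regions with Suz12 in both cultures and 22.4% of regions with Suz12 in neither. Members had a higher median LIF-ESC H3K4me3 score than the last group (844 against 267), and the shares were not adjusted for this. Up to 2000 bp of LIF-ESC width, 205 of 237 members and 7008 of 10759 regions with Suz12 in neither kept a peak. Over 8000 bp, 50 of 50 and 717 of 747 did. The median extent at strong members was 3012.5 bp with LIF and 3096.5 bp with Myc. Over all members the median ratio was 1.05, and it turned to 0.989 when LIF-ESC peaks were taken singly, without the Myc-ESC bases beyond them. Of the strong members with H3K4me3 in both cultures, 41.9% (interval 37.7 to 46.2%) had fewer H3K4me3 bases in Myc-ESCs, as had 28.1% of weak members (interval 24.7 to 31.7%), beside 30.0% of all such regions. At regions with Suz12 in both cultures 12.5% (interval 11.3 to 13.7%) did.

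Broader regions fell more, at strong members and at regions with Suz12 in neither culture. At strong members over 8000 bp wide in LIF-ESCs (n = 30) the median log2 ratio of H3K4me3 bases, Myc-ESCs over LIF-ESCs, was -0.44 (quartiles -0.99 and -0.20). Regions of that width with Suz12 in neither culture (n = 717) had a median of -0.45 (quartiles -0.84 and -0.16), and the 21 with Suz12 in both had a median of -0.01. From 6000 to 8000 bp the medians were -0.19 at strong members, -0.21 without Suz12 and 0.07 with Suz12 in both. From 4000 to 6000 bp the medians were -0.12 at strong members, -0.05 without Suz12 and 0.10 with Suz12 in both. Up to 2000 bp they were 0.42, 0.38 and 0.48. Members thus lay close to the regions without Suz12 in every width step, and the regions with Suz12 in both cultures lay higher at every width. Regions were grouped by their LIF-ESC width, which is also the denominator of the ratio, and the part of this in the slope was not tested.

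**Figure D3:**
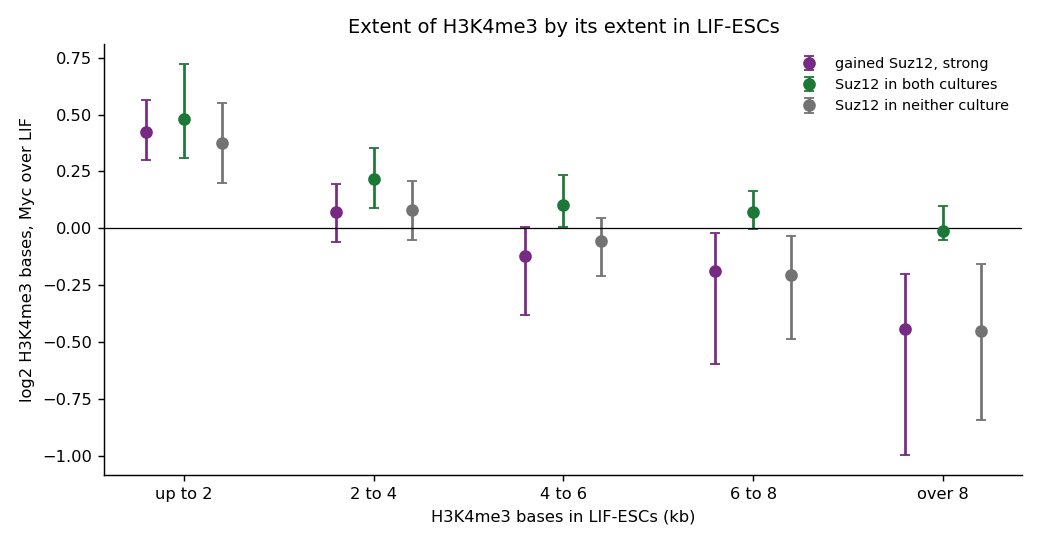
Log2 ratio of H3K4me3-covered bases, Myc-ESCs over LIF-ESCs, by the number of bases in LIF-ESCs (kb), for strong members (purple) and regions with Suz12 in both cultures (green) or neither (grey), with H3K4me3 in both cultures. Points are medians and bars run from the lower to the upper quartile. The strong members fall to -0.44 over 8 kb, near the grey points at -0.45.

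By the ratio of H3K4me3 bases, the largest falls at strong members with a start site and H3K4me3 in both cultures were at B3gnt2, a glycosyltransferase gene (from 19321 bp in LIF-ESCs to 5118 bp in Myc-ESCs), Klf5, a partner of Klf4 in naive ESCs (18927 and 7027 bp), Kdelr3 (6000 and 2396 bp), Igsf21 (8174 and 3325 bp) and C77080 (11107 and 4795 bp). Their Suz12 scores ranged from 187.27 at C77080 to 1180.1 at Kdelr3. No ratio can be given for Pcdhgb8, Pcdhga12, Cabp7, Sdc3 and Tmem117, where no H3K4me3 was called in Myc-ESCs. In bases, Med13l (12199 and 6079 bp), Tbx3 and Inhbb fell by more than Kdelr3 or Igsf21. The largest rises by the same ratio were at Bicc1 (1364 and 3241 bp), Kcnj6 (1365 and 3209 bp), Dclk3 (924 and 1869 bp), Arid3c (1035 and 2003 bp) and Zfp469 (1746 and 3279 bp). In bases, 6820431F20Rik (19524 and 27139 bp) and Gadd45b (3266 and 5367 bp) rose by more. At strong members, Myc-ESC Suz12 peaks covered 32.6% of the H3K4me3 bases held in both cultures and 11.5% of those held in LIF-ESCs only. At weak members these shares were 9.42 and 1.78%, and at regions with Suz12 in both cultures 56.4 and 45.5%. These shares are descriptions only, since the classes were chosen by Suz12 near the region and no baseline for its place within a region was set.

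The score of H3K4me3 was lower in Myc-ESCs at 69.5% of strong members (interval 65.4 to 73.3%) and 52.4% of weak members (interval 48.5 to 56.3%), beside 44.1% of all regions with the mark in both cultures. This too followed the LIF-ESC value. Of members with a LIF-ESC H3K4me3 score from 400 to 800, 65.6% (interval 59.0 to 71.6%) scored lower in Myc-ESCs, against 63.6% without Suz12 and 33.3% with Suz12 in both. From 1600 to 3000 the shares were 83.9% (interval 78.4 to 88.2%), 77.4% and 64.4%. Only at 3000 and above, where the scale ends, did members (56.2%, interval 48.3 to 63.8%) stand clear of regions without Suz12 (28.1%, interval 26.8 to 29.5%).

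The gain of Suz12 went with CpG density, a property that no peak list measures. In the 300 bp at the centre of the H3K4me3 region, strong members held a median of 24 CpG and weak members 21, against 23 with Suz12 in both cultures, 16 with Suz12 in LIF-ESCs only and 11 with Suz12 in neither. Of the regions free of Suz12 in LIF-ESCs, 1.38% (interval 1.11 to 1.71%) gained it where fewer than 5 CpG were present, and 14.6% (interval 13.4 to 15.7%) where there were at least 25. Strong members alone ran from 0.717% (interval 0.531 to 0.967%) up to 7.21% (interval 6.41 to 8.09%). Start sites are CpG-rich, and 71.8% of members (interval 69.2 to 74.3%) had a start site of a curated RefSeq transcript within 1000 bp, against 38.5% of regions without Suz12. The rise was present on both sides of this division. At regions with a start site the gain ran from 3.02% (interval 2.30 to 3.96%) to 13.1% (interval 12.0 to 14.3%), and at regions without one from 0.738% (interval 0.520 to 1.05%) to 25.1% (interval 21.2 to 29.3%).

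**Figure D4:**
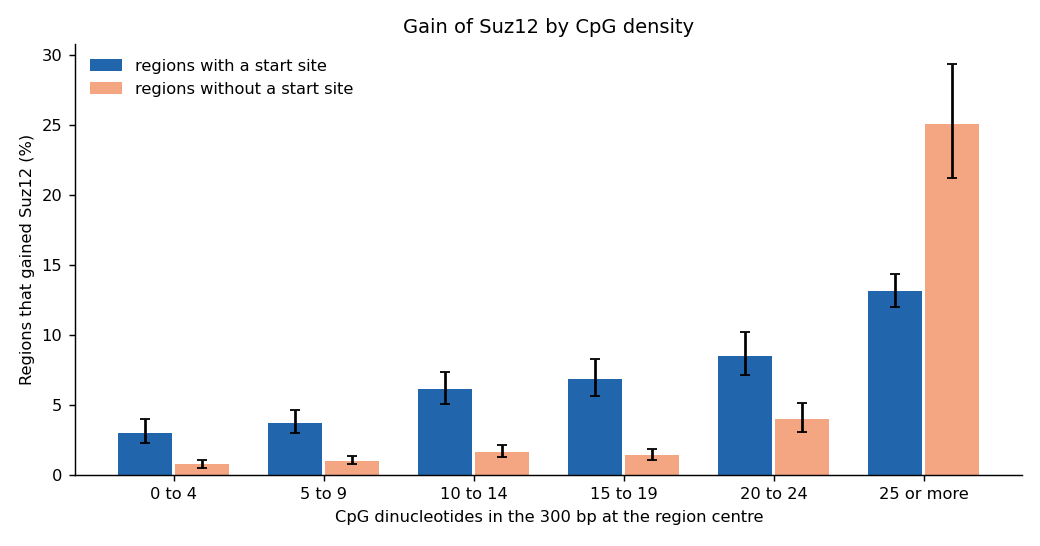
Share of H3K4me3 regions free of Suz12 in LIF-ESCs that gained Suz12 in Myc-ESCs (%), by the number of CpG dinucleotides in the central 300 bp, for regions with (blue) and without (orange) a start site within 1000 bp. Bars carry 95% Wilson intervals and reach 13.1 and 25.1% at 25 or more CpG.

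By raw share, short sequence motifs were no more frequent at members than elsewhere in the same windows. The E-box CACGTG, which Myc binds, stood on either strand in 4.85% of members (interval 3.77 to 6.22%), against 5.66% of regions without Suz12 and 5.78% with Suz12 in both. The Stat motif TTCCNGGAA stood in 0.335% of members (interval 0.130 to 0.857%) and in 0.968% of regions without Suz12 (interval 0.858 to 1.09%). For CTTTGAT, the Tcf/Lef motif of the Wnt pathway, it was 1.92% (interval 1.29 to 2.87%) against 2.86% (interval 2.67 to 3.06%). The shares were not adjusted for base composition, and the median GC content was 65.0% at members and 55.7% at regions without Suz12. These letters describe windows at region centres and not sites of binding.

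By the rule the Suz12 peak lay within 1000 bp, and the strongest one overlapped the H3K4me3 region itself at 96.0% of strong and 95.1% of weak members. Its centre lay within 2500 bp of a start site at 73.9% of strong members, and of these 76.6% (interval 72.2 to 80.5%) were downstream of the start. For regions with Suz12 in both cultures this was 78.1% (interval 76.4 to 79.7%). The centres of the members' H3K4me3 regions were downstream of a start site within that reach in 80.6% of cases (interval 77.8 to 83.2%), and those of regions without Suz12 in 81.9% (interval 81.1 to 82.6%). Since the rule asks for Suz12 near the region, its place on H3K4me3 is not a finding. By annotation, 48.5% of the Suz12 centres of strong members fell in introns, 27.2% between genes and 15.1% in coding exons.

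By gene, 12786 genes had an H3K4me3 region in LIF-ESCs at a start site and no Suz12 at any of their regions in LIF-ESCs. Of these genes 919 (7.19%) gained Suz12, and 428 (3.35%) did so with a strong peak. Gene lists were set beside these shares. Some genes stand in several lists, and the lists were drawn up with earlier results of these data known.

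In the list of Stat3 targets and LIF response genes, 9 of 22 such genes gained Suz12 (40.9%, interval 23.3 to 61.3%), of which 5 were strong. The strong members were Socs3, Klf4, Klf5, Junb, an AP-1 subunit, and Il6ra, an interleukin-6 receptor chain. The weak members were Socs2, Stat5b, Pim1 and Ier3. At Junb the Suz12 score was 225.07, with H3K4me3 over 8149 bp with LIF and 6782 bp with Myc. At Il6ra it was 310.38, with H3K4me3 over 2486 and 2604 bp. The 9 genes thus included an interleukin-6 receptor chain, transcription factors and feedback inhibitors, and the rest of the 22 gained no Suz12. In the wider Jak-Stat list of the study, 13 of 101 gained Suz12 (12.9%, interval 7.68 to 20.8%). Its further strong members were Socs7, Spred1, Kit, Hes1 and Notch1.

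Of the naive pluripotency genes 5 of 24 gained Suz12 (20.8%, interval 9.24 to 40.5%). They were Klf4, Klf5, Nr5a2 and Tbx3 with strong peaks and Jam2 with a weak one. The immediate early genes, which answer growth factor signals within minutes, gained it in 6 of 19 cases (31.6%, interval 15.4 to 54.0%), with Junb, Klf4 and the stress gene Gadd45b strong and Egr1, Fosb and Ier3 weak. In the list of primed epiblast genes, 2 of 9 did (22.2%, interval 6.32 to 54.7%), Etv5 and Lefty1, both weak. That interval includes the 7.19% of all such genes.

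Among antagonists and negative regulators of Wnt signalling, 10 genes already held Suz12 in LIF-ESCs, and of 13 that were free of it 7 gained it (53.8%, interval 29.1 to 76.8%). Strong peaks lay at Axin2, a scaffold of the complex that destroys beta-catenin, with a score of 174.91, at Nkd2 with 237.05, at Notum, a secreted enzyme that inactivates Wnt proteins, with 512.05, and at the Groucho-type corepressors Tle1 with 616.91 and Tle3 with 408.77. Tle1 carried 10 Suz12 peaks and 4 Myc-ESC H3K27me3 peaks. Axin2, Nkd2 and Notum carried no H3K27me3 peak. Apcdd1, a membrane-bound Wnt inhibitor, was a weak member with a score of 69.32 and no H3K27me3 peak, and Tle2 was weak as well. Sfrp1, Sfrp5, Dkk1, Fzd1, Fzd7 and Sox17 held Suz12 in LIF-ESCs and are therefore not members. At Sfrp1 the LIF-ESC Suz12 peak had a score of 75.19 and the highest Myc-ESC peak 1956.27.

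In the Wnt pathway list of the study, 35 of 211 genes gained Suz12 (16.6%, interval 12.2 to 22.2%), 20 of them strong. They included the receptors Fzd5 (103.17) and Fzd10 (864.38), the ligand Wnt5b (348.02), the GSK3-binding proteins Frat1 (1180.05) and Frat2 (450.93) and the nuclear cofactor Pygo1 (223.9). The members therefore took in activating parts of the pathway as well as its antagonists. For the other lists of the study the gains were 47 of 258 MAPK genes (18.2%), 14 of 76 TGF-beta and BMP genes (18.4%), 15 of 97 Hippo genes (15.5%), 25 of 190 PI3K-Akt genes (13.2%), 4 of 50 mTOR genes (8.00%) and 17 of 296 pluripotency genes (5.74%). The mTOR and pluripotency shares were near that of all genes. Lists that a study draws up are not independent evidence for a direction.

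In the remaining lists, too, the intervals included the 7.19% of all such genes. Of 22 genes of Polycomb subunits 2 gained Suz12 (9.09%, interval 2.53 to 27.8%), Phc2 and Pcgf2, both weak. Of 23 Myc targets for growth, such as those for ribosome assembly and nucleotide synthesis, 0 did, which allows a share of up to 13.0% if a count of 0 may stand for 3, and of 14.3% by the Wilson interval. Of 31 germ layer regulators, 25 held Suz12 in LIF-ESCs and only 1 was free to gain it, which it did not.

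**Figure D5:**
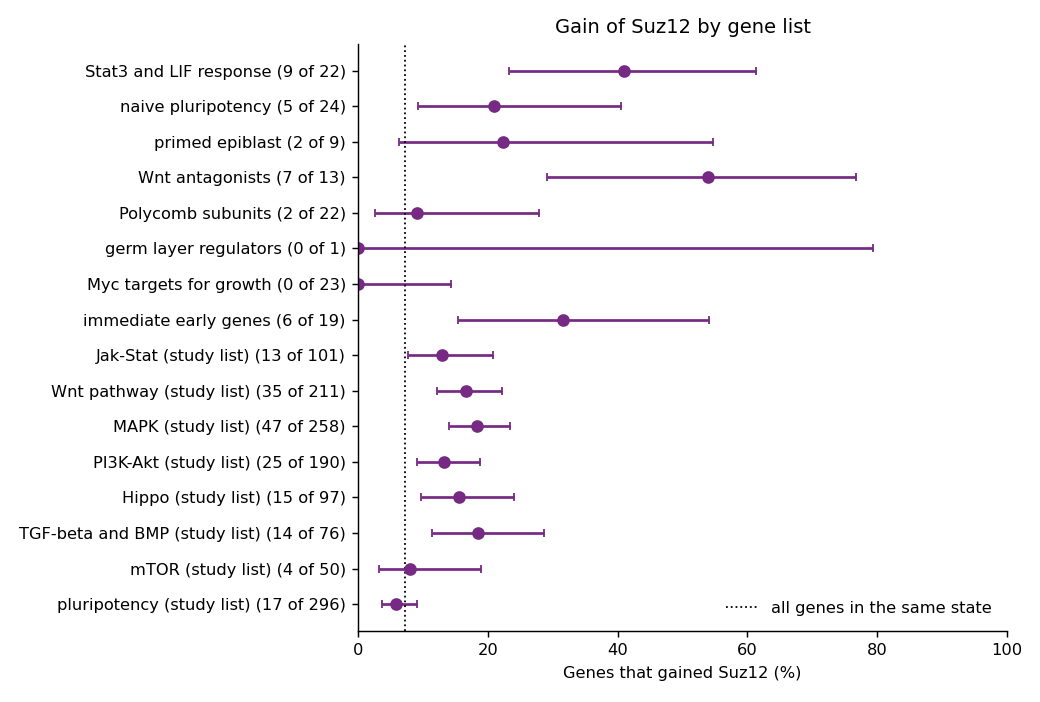
Share of genes with LIF-ESC H3K4me3 and no LIF-ESC Suz12 that gained Suz12 in Myc-ESCs (%), by gene list, with counts in brackets and 95% Wilson intervals. The dotted line marks the 7.19% of all such genes, beside which the Wnt antagonists reach 53.8% and the Stat3 and LIF response genes 40.9%.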

How the data were processed

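The authors sequenced 16 ChIP and input libraries, aligned reads to GRCm38 with Bowtie2 2.2.3 and called peaks with MACS 1.4.2, per the labels. The values they deposited are 6 peak lists with a score per peak, which in this version of MACS is a log-scale measure of the p-value. The authors' score starts at 50 in every list. Whether libraries were pooled is not given in the sources used here.

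Peaks of 21 chromosomes were compared with Python 3.11.15, pandas 2.3.3 and numpy 2.4.6. Sequences were read with pysam 0.24.0 from RefSeq GRCm38.p6, and figures drawn with matplotlib 3.10.9. Peaks sharing at least 1 bp were merged, and peaks of different antibodies were joined within 1000 bp. Start sites came from 44528 curated RefSeq transcripts of 24952 symbols and belonged to a region within 1000 bp. A gene gained Suz12 if a region at its start sites was a member and none held LIF-ESC Suz12. CpG and motifs were counted at region centres so that regions without Suz12 could be included, in place of the Suz12 centres first planned. The code was tested on simulated data, where 2000 of 2000 regions of known class were recovered.

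Members, lists and measures were chosen with earlier results of these data known. Genes named are the 8 whose chromatin the study names, the 20 with the highest Suz12 score, the 5 with a start site and the highest H3K27me3 score, the 5 with the largest fall and the 5 with the largest rise of H3K4me3 bases, by log2 ratio, at strong members, and strong members of the authors' Jak-Stat and Wnt lists and of 8 further lists. Weak members of the lists, further genes of families, and the divisions by width, score, CpG and start site were added after values were seen. Alternatives were distances of 0 and 5000 bp, lists of equal length, scores of at least 100, unmerged peaks, another reach to start sites and GENCODE. Shortened supplementary lists were not used here.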

Additional observations from a re-analysis of the deposited data

How the results depend on the processing

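Over 53 recalculated values, 35 stayed within the interval of the value given above, or for counts within 1.5 times of it, 17 moved beyond it and 1 changed direction. The number of members ranged from 946 with lists of equal length to 1359 with distances of 5000 bp. Lists of equal length gave a gaining share of 3.58%, a strong share of 56.6%, H3K27me3 in Myc-ESCs at 7.19%, H3K4me3 in Myc-ESCs at 97.0% and start sites at 75.2% of members. With scores of at least 100, 1005 regions gained Suz12, some of which hold a LIF-ESC Suz12 peak under 100. For these the strong share was 100% by construction. H3K27me3 lay at 14.2% in Myc-ESCs and 0.697% in LIF-ESCs, start sites at 79.6%, and the median ratio of H3K4me3 bases was 1.07. Distances of 5000 bp gave a gaining share of 4.85%, H3K4me3 in Myc-ESCs at 91.7%, start sites at 66.4% and a ratio of 1.04. Overlap without any distance gave H3K27me3 at 31.9% in Myc-ESCs and 4.18% in LIF-ESCs, and GENCODE start sites gave 77.2%. With LIF-ESC H3K4me3 peaks taken singly the median ratio turned from 1.05 to 0.989, because Myc-ESC bases beyond the LIF-ESC peak are then not counted. Of 58 named genes with strong peaks, 58 gained Suz12 with lists of equal length. With scores of at least 100, 56 did, without Dclk3 and Kcnj6. Neither change drops Suz12 peaks with scores of at least 100, and neither adds a LIF-ESC Suz12 peak. A gene could thus leave only through its H3K4me3 peaks. Dclk3 and Kcnj6 had LIF-ESC H3K4me3 scores of 84.41 and 88.68. These counts therefore do not test the gain. No paired analysis was possible because the lists carry no replicate, and for the same reason no library could be left out.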

Other observations

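Gene families were grouped by symbol after the members had been seen, so their counts are descriptions. Of the clustered gamma protocadherins, adhesion proteins that give neurons their surface identity, 9 genes had LIF-ESC H3K4me3 at a start site and no LIF-ESC Suz12. All 9 gained Suz12, 8 of them with a strong peak, beside 7.19% of all such genes. They lie next to each other on chromosome 18, are not independent, and mostly lie near LIF-ESC Suz12 peaks elsewhere in the cluster. The gap was 1056 bp at Pcdhga11, 1645 bp at Pcdhga12, 2767 bp at Pcdhga9, 3748 bp at Pcdhgb8, 4224 bp at Pcdhga7 and 4616 bp at Pcdhga3. Pcdhga9, Pcdhgb8 and Pcdhga12 also held an H3K27me3 peak in LIF-ESCs. Pcdhgb8 and Pcdhga12 shared a Suz12 peak with a score of 1000.8, and at neither was H3K4me3 still called in Myc-ESCs (1236 and 1697 bp in LIF-ESCs, 0 bp in Myc-ESCs).

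Among genes of potassium channels and their subunits (symbols that begin with Kcn), 11 of 23 gained Suz12, 9 of them strong. Over all such genes the shares were 7.19% with any peak and 3.35% with a strong one. Kcnj12 had the highest score, 923.74, with 4 Myc-ESC H3K27me3 peaks, followed by Kcnk3 with 380.27 and 3 peaks, while Kcnh8 (159.1) and Kcnk6 (221.39) had none. Of zinc finger genes with symbols that begin with Zfp, 7 of 363 gained Suz12, and of solute carriers 12 of 197, the latter near the share of all such genes. Further families by symbol were Sema (5 of 11), Klf (3 of 13), Socs (3 of 6) and Tbx (3 of 4). Families with fewer such genes were Fzd (2 of 2), Bmp (2 of 2), Wnt (1 of 2) and Pcdha (1 of 1). A further 64 H3K4me3 regions had no LIF-ESC H3K4me3 peak, gained Suz12 and are not members.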
